A study of Homo sapiens with 6 samples.

Results

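DNA methylation at CpG dinucleotides is laid down and removed by a small set of enzymes, and 9 of their genes were examined: DNMT1, DNMT3A, DNMT3B, DNMT3L, UHRF1, TET1, TET2, TET3 and TDG. They were chosen by name as the 9 rows of a count table of 59653 gene symbols. The samples were cells of PA1, an established human ovarian teratocarcinoma line labelled wildtype, given either a negative control small interfering RNA (siRNA) or siRNA against the transcription factor SOX2, with 3 mRNA sequencing libraries for each treatment. The design text names 2 SOX2 siRNAs without saying whether they were combined, so the treated group stands for 1 cell line and an unspecified mix or choice of siRNAs. Cells of both groups were transfected while attached and, 24 h later, moved for 72 h to a coating of poly-HEMA, on which they grow unattached, so no attached or untransfected culture is compared here. The labels do not say whether the replicates came from separate cultures, and p-values therefore measure the spread between these libraries, which may be technical.

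DNMT3A and DNMT3B place methyl groups on unmethylated DNA, DNMT3L is a catalytically inactive partner that stimulates them, and DNMT1 copies the pattern onto the new strand after replication, to which it is brought by the hemimethylated-DNA binder UHRF1. TET1, TET2 and TET3 oxidise 5-methylcytosine to 5-hydroxymethylcytosine and further, and the glycosylase TDG cuts out the most oxidised forms so that base excision repair can restore an unmethylated cytosine. Pluripotent cells are known for high DNMT3B and TET1, and SOX2 is one of the factors that maintain them.

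With SOX2 siRNA, the de novo enzyme DNMT3B rose by 32.3%, UHRF1 by 17.5% and TDG by 12.8%, TET1 fell by 22.3%, and DNMT1, DNMT3A and TET3 did not pass the test. TET2 passed it narrowly and lost the call under most alternatives. DNMT3L had no count in any library. In numbers, 8 of the 9 genes had counts and the same 8 passed the filter on low values, and 5 of these had a Benjamini-Hochberg adjusted p under 0.05 in edgeR's quasi-likelihood test, 4 higher and 1 lower. Over all 17592 genes tested the share called was 28.2%, with 14.8% higher and 13.4% lower. All 8 members reach a mean log2 CPM of 4 (CPM being the counts-per-million scale, after scaling of the libraries), and among the tested genes that do so the share was 36.6%. With so many genes called and only 8 members, the count of 5 is a description and sets the group apart from nothing.

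The start regions of the 4 genes whose control and SOX2 siRNA libraries did not overlap are shown because CpG dinucleotides, in capitals, are what these enzymes act on. They run from 250 bases before to 50 after a transcription start in RefSeq on GRCh38.p14, read in the direction of the gene. RefSeq windows were found for 8 of the 9 genes, 19 windows in all, with none for DNMT3L, and CpG counts are compared with the median of 14 over 35116 windows.
DNMT3B, chr20:32779602-32779901, plus strand, 3 CpG: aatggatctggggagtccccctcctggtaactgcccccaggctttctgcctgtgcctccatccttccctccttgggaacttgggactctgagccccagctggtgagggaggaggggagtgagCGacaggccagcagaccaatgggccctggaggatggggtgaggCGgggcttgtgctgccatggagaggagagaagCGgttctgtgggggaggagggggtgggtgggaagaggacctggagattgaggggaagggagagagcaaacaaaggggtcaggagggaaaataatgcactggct
UHRF1, chr19:4909251-4909550, plus strand, 36 CpG: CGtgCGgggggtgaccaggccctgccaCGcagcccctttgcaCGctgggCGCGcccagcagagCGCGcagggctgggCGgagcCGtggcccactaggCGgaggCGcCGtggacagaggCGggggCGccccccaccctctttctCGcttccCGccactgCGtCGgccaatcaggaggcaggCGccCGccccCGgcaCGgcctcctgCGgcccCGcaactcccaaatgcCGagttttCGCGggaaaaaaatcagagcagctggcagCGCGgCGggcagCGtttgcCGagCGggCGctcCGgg
TET1, chr10:68560087-68560386, plus strand, 10 CpG: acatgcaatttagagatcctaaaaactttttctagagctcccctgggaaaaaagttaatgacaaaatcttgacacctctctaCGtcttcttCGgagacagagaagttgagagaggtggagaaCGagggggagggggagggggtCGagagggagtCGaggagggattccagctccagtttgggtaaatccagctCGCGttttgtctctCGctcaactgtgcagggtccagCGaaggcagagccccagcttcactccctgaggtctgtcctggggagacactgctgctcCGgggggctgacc
TDG, chr12:103965622-103965921, plus strand, 22 CpG: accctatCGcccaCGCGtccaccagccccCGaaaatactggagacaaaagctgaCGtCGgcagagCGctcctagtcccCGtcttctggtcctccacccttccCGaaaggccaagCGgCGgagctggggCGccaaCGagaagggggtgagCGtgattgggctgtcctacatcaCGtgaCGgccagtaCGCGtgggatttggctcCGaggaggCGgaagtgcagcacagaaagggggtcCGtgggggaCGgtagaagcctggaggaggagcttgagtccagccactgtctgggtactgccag

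The DNMT3B window, the only one of that gene, surrounds an exonic start 17467 bases inside the gene as GENCODE 29 draws it, so it is not the region of the outermost start. The UHRF1 start lies in an exon, 6421 bases inside the gene and 3 bases from a GENCODE transcript start. The TET1 start lies 319 bases upstream of the gene as GENCODE draws it, and the TDG start is exonic, 68 bases inside the gene. Other windows, not shown, hold 40 and 46 CpG for UHRF1 and 6 and 11 CpG for TET1. Gene counts add up all starts and cannot say which was used. Both strands of all 19 windows were searched for 5 motifs. AACAATG, a SOX-type motif held by 3.33% of all windows, occurred in 1 of them, a TET1 window around an intronic start 39818 bases inside the gene, and in none of the 4 shown. An E2F-type motif, TTTGGCGC or TTTCCCGC, held by 2.27% of all windows, occurred in 1, the UHRF1 window shown, as GCGGGAAA beginning 14 bases before the start. The GC box GGGCGG and CCAAT, held by 45.0% and 34.6% of all windows, were found in several members' windows and the ETS-type motif CCGGAAGT, held by 4.14%, in none. These matches describe letters only.

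SOX2 itself was at 255 ± 10.1 CPM in the controls and 52.5 ± 2.21 CPM after SOX2 siRNA (SD, n = 3; log2 fold change -2.28, edgeR adjusted p = 5.97e-16). Depth was 25152313 to 32753184 counts per library, and correlations of log2 CPM across genes were 0.990 to 0.992 within and 0.982 to 0.985 between groups. Of 10 markers of pluripotent or embryonal carcinoma cells, POU5F1, LIN28A, LIN28B, SALL4 and PODXL were high (151 to 1316 CPM on average in control), while NANOG, DPPA4, L1TD1, DPPA2 and TDGF1 were each under 4 CPM. The list moved in both directions, with 5 of 8 tested genes called: LIN28A (log2 fold change 0.70), LIN28B (0.59) and POU5F1 (0.17) rose and PODXL (-0.97) and NANOG (-1.91) fell (edgeR adjusted p = 1.80e-11, 5.09e-09, 0.00798, 9.54e-13 and 3.08e-04). Its summed level was 2683 to 2741 CPM in control and 2643 to 2704 in SOX2 siRNA libraries. Summed over their lists, 4 epithelial markers were at 344 to 387 CPM in control and 476 to 512 in SOX2 siRNA libraries, 4 fibroblast markers at 273 to 321 and 359 to 406, 4 endothelial markers at 88.4 to 92.1 and 61.4 to 63.5, and 4 leukocyte markers at no more than 1.11 in any library. KRT8 and KRT18 made up most of the epithelial sum and COL1A1 most of the fibroblast sum, while CDH1, EPCAM and LUM were each under 3 CPM on average in either group. The part of these shifts in the results below was not tested, and in bulk RNA a change in cells of one kind cannot be told apart from a change in RNA per cell.

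Among the de novo methyltransferases, DNMT3B (chromosome 20, 32762385 to 32809356, GRCh38) had the strongest change of the 9 genes. Its level was 104, 95.9 and 98.8 CPM in control replicates 1 to 3 and 129, 133 and 133 CPM in SOX2 siRNA replicates 1 to 3. The SOX2 siRNA libraries lay close together and every one of them was above the highest control. The mean rose from 99.7 ± 4.27 to 132 ± 2.41 CPM (SD, n = 3), a log2 fold change of 0.40 (SE 0.040; edgeR quasi-likelihood, Benjamini-Hochberg adjusted p = 5.79e-07), or 32.3% with a 95% interval of 24.8% to 40.3%. By size this change ranked at percentile 82.1 of all tested genes, so it was moderate beside the rest of the transcriptome.

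DNMT3A (chromosome 2, 25227855 to 25342590), the other active de novo enzyme, was at 112, 113 and 109 CPM in the controls and 113, 110 and 112 CPM after SOX2 siRNA. The groups overlapped. The log2 fold change was 0.010 (SE 0.037; edgeR adjusted p = 0.876), and the 95% interval of the change, from -4.55% to 6.26%, leaves room only for a shift much smaller than that of DNMT3B. The comparison of both enzymes within a library needs no scaling between libraries. The ratio of DNMT3B to DNMT3A counts was 0.931, 0.851 and 0.910 in control and 1.14, 1.21 and 1.19 in SOX2 siRNA libraries, without overlap of the groups. The ratio is of raw counts, not adjusted for transcript length, so only its change between groups is read and not its distance from 1. The log2 ratio differed by 0.40 (exact two-sided permutation p = 0.1, the smallest that 3 against 3 libraries allow).

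DNMT3L (chromosome 21, 44246339 to 44262216) had 0 counts in each of the 6 libraries. A count of 0 allows up to 3 counts, here 0.0909 to 0.120 CPM depending on the library, a limit that covers counting error only. The gene is expressed in germ cells and in embryonic stem cell cultures, and its transcript was not detectable at this depth in either group. The rows of its antisense transcript DNMT3L-AS1 and of the pseudogene DNMT3AP1 also held 0 counts throughout.

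**Figure D1:**
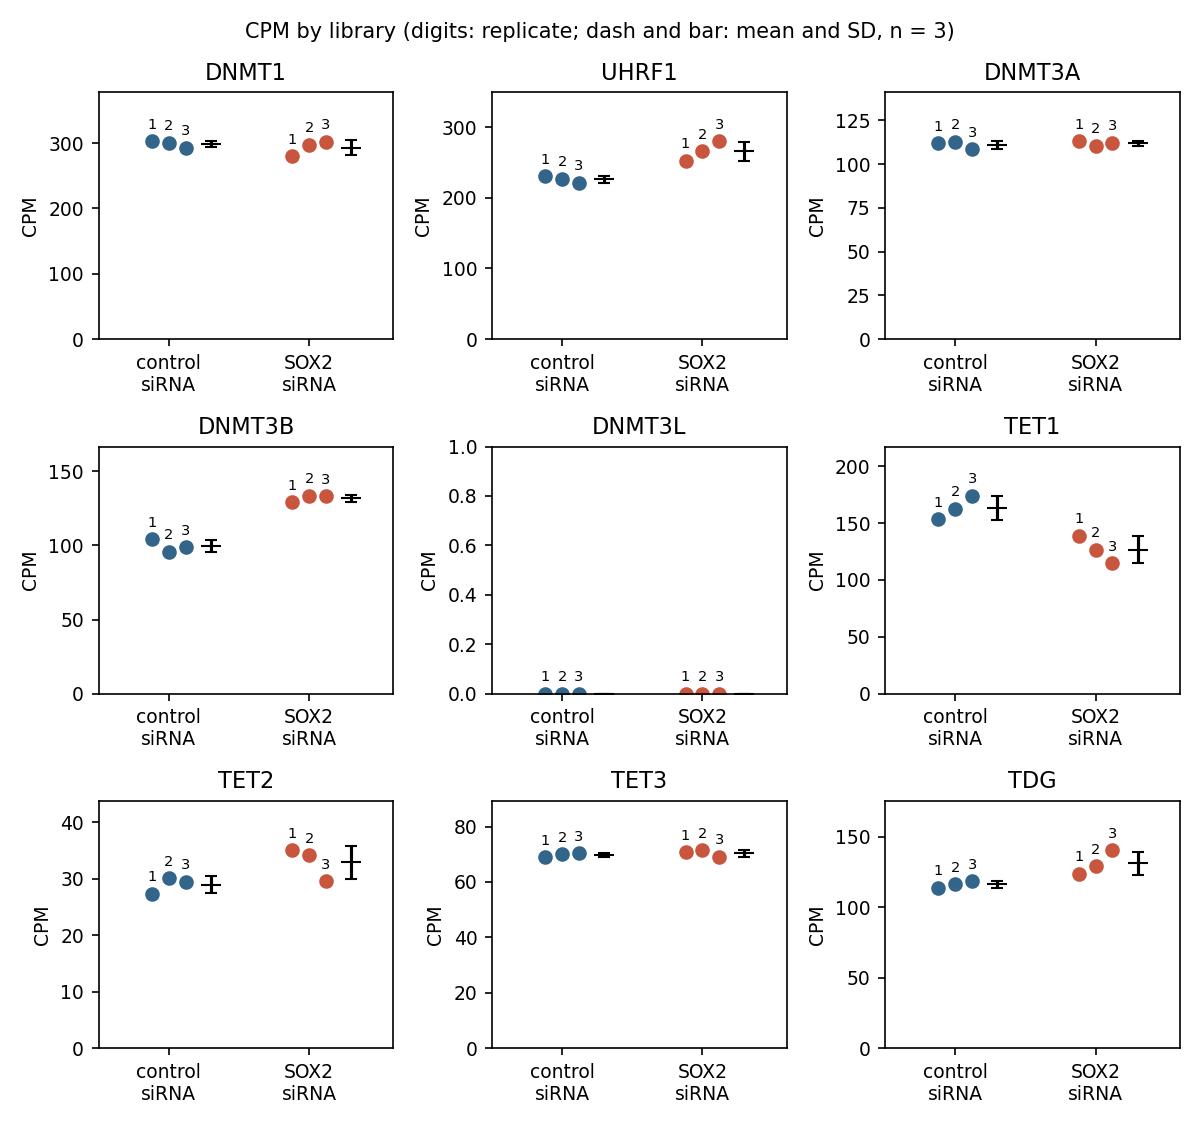
Expression of the 9 genes in each library in CPM (vertical axes start at 0), with control siRNA in blue, SOX2 siRNA in red, digits for replicate numbers, and the dash and bar for mean and SD (n = 3). DNMT3B, UHRF1 and TDG libraries are all higher and TET1 libraries all lower after SOX2 siRNA, 1 SOX2 siRNA library of TET2 lies within the control range, and DNMT3L is at 0 in all 6.

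On the maintenance side UHRF1 rose and DNMT1 was not called. DNMT1 (chromosome 19, 10133345 to 10231286) was at 303, 301 and 293 CPM in the controls and 280, 297 and 302 CPM after SOX2 siRNA, with overlapping groups. Its log2 fold change was -0.028 (SE 0.037; edgeR adjusted p = 0.624), with a 95% interval from -7.07% to 3.47%. UHRF1 (chromosome 19, 4903080 to 4962154) was at 230, 227 and 221 CPM in the controls and 252, 265 and 280 CPM after SOX2 siRNA. All SOX2 siRNA libraries were above all controls, and they spread more than the controls did. The mean rose from 226 ± 4.76 to 266 ± 13.8 CPM (SD, n = 3), a log2 fold change of 0.23 (SE 0.040; edgeR adjusted p = 2.51e-04), or 17.5% with a 95% interval of 10.9% to 24.6%. The intervals of DNMT1 and UHRF1 do not meet, though the difference between these genes was not itself tested. In GENCODE 29, 83 exon bases of DNMT1 (0.847%) overlap S1PR2 on the same strand, whose row held 152 to 343 counts beside 7537 to 9987 for DNMT1.

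Of the oxidising enzymes, TET1 (chromosome 10, 68560656 to 68694482) was the 1 member that fell. It was at 153, 162 and 174 CPM in the controls and 139, 127 and 114 CPM after SOX2 siRNA. No SOX2 siRNA library reached the lowest control, but the gap between the nearest libraries, 139 and 153 CPM, was smaller than the range within either group. The mean fell from 163 ± 10.3 to 127 ± 12.2 CPM (SD, n = 3), a log2 fold change of -0.36 (SE 0.077; edgeR adjusted p = 0.0105), a change of -22.3% with a 95% interval from -31.4% to -12.0%. The call was lost without control replicate 2 (log2 fold change -0.37, edgeR adjusted p = 0.0680, the adjusted p ranging from 3.71e-15 (without the filter) to 0.147 over 15 alternatives). It was also lost when the replicate number was fitted as a block (-0.37, edgeR adjusted p = 0.147).

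TET2 (chromosome 4, 105145875 to 105279816) was at 27.4, 30.1 and 29.5 CPM in the controls and 35.0, 34.1 and 29.5 CPM after SOX2 siRNA. SOX2 siRNA replicate 3 lay within the control range and the other two lay above it. The log2 fold change was 0.19 (SE 0.065; edgeR adjusted p = 0.0435), and 9 of 15 alternatives lost the call, with adjusted p up to 0.179. These 9 include leaving out control replicate 1, 2 or 3 (adjusted p = 0.176, 0.0731 and 0.0900) and SOX2 siRNA replicate 1 or 2 (0.160 and 0.179). TET3 (chromosome 2, 73986404 to 74108176) was at 69.0, 70.1 and 70.4 CPM in the controls and 70.8, 71.4 and 69.0 CPM after SOX2 siRNA, with a log2 fold change of 0.012 (SE 0.040; edgeR adjusted p = 0.861) and a 95% interval from -4.86% to 6.94%. Its 6 libraries lay closer together than those of any other detected member by range over mean.

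Within the TET family, TET1 supplied 61.4%, 61.8% and 63.5% of the reads of the 3 TET genes in control and 56.8%, 54.5% and 53.7% in SOX2 siRNA libraries, without overlap, a difference of -7.24 percentage points (exact two-sided permutation p = 0.1, the smallest possible). These are shares of reads, not adjusted for transcript length.

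**Figure D2:**
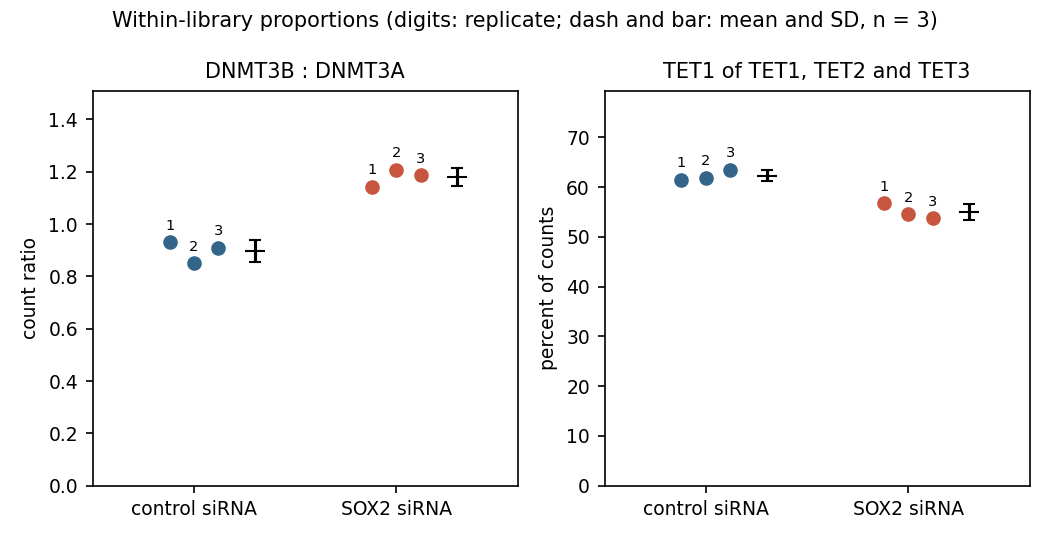
Count ratio of DNMT3B to DNMT3A (left) and percent of TET1, TET2 and TET3 counts that came from TET1 (right) in each library, with digits for replicate numbers and the dash and bar for mean and SD (n = 3). The ratio lies between 0.851 and 0.931 in control and between 1.14 and 1.21 in SOX2 siRNA libraries, and the TET1 share falls from 61.4% or more to 56.8% or less.

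TDG (chromosome 12, 103965804 to 103988874), which acts after the TET enzymes, was at 114, 117 and 119 CPM in the controls and 124, 129 and 140 CPM after SOX2 siRNA. The groups did not overlap, and SOX2 siRNA replicate 3 was highest. The mean rose from 116 ± 2.35 to 131 ± 8.43 CPM (SD, n = 3), a log2 fold change of 0.17 (SE 0.044; edgeR adjusted p = 0.00699), or 12.8% with a 95% interval of 5.69% to 20.4%. TDG has a named pseudogene, TDGP1, with 3 to 16 counts per library beside 2919 to 4195 for TDG, and reads shared between near-identical copies could be split by the counting. The rows TET1P1 and TET2-AS1 held 1 count each over all libraries.

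In all, 4 of the 8 tested members (DNMT3B, UHRF1, TET1 and TDG) had CPM ranges that stayed apart between the groups, beside 41.8% of all tested genes, a share near the background. By size of change, TET1 ranked at percentile 79.5, UHRF1 at 66.3, TET2 at 58.4 and TDG at 56.1 of all tested genes, while DNMT1, TET3 and DNMT3A ranked at 11.8, 5.03 and 4.18. The median log2 fold change was 0.093 over the 8 members and -0.00085 over all tested genes. SOX2 siRNA replicate 3 held the highest UHRF1, TDG and DNMT1 and the lowest TET1, TET2 and TET3 of its group.

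**Figure D3:**
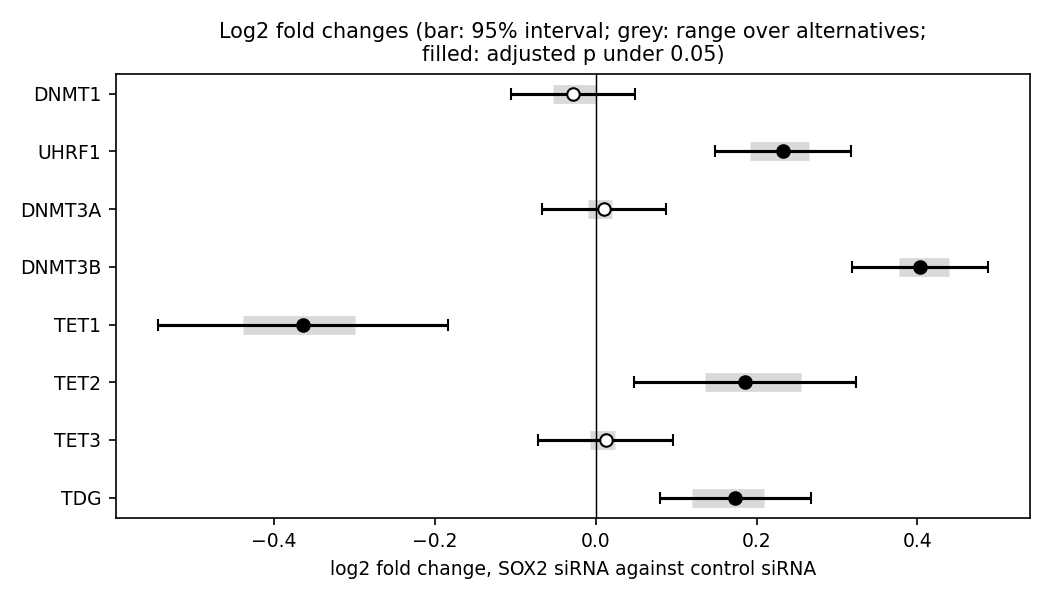
Log2 fold change of SOX2 siRNA against control siRNA for the 8 detected genes, with 95% intervals as bars and, in grey, the range over 15 alternative analyses, filled points having an adjusted p under 0.05. DNMT3B (0.40) and TET1 (-0.36) lie farthest from 0, and the intervals of DNMT1, DNMT3A and TET3 include 0.

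To compare levels between genes, CPM was divided by length, giving CPM per kb of the GENCODE 29 transcript with the longest coding sequence. In control libraries DNMT1 was at 57.4 ± 1.01, UHRF1 at 57.0 ± 1.20, TDG at 35.8 ± 0.722, DNMT3B at 23.0 ± 0.986 and TET1 at 17.6 ± 1.11 CPM per kb (SD, n = 3). DNMT3A followed at 11.7 ± 0.235, TET3 at 6.13 ± 0.0664 and TET2 at 2.85 ± 0.141 CPM per kb (SD, n = 3), with DNMT3L at 0. Only DNMT1 and UHRF1 overlapped among neighbours in this order. In SOX2 siRNA libraries UHRF1 (67.0 ± 3.47 CPM per kb) stood above DNMT1 (56.3 ± 2.25) without overlap, and the order of the other genes was that of the control libraries. DNMT3B and TET1 moved apart, from 23.0 and 17.6 to 30.4 ± 0.555 and 13.6 ± 1.32 CPM per kb. The order rests in part on the length used: per kb of all exons merged, UHRF1 (43.9) was above DNMT1 (30.5) in control too, and DNMT3B (28.5) was above TDG (26.8) after SOX2 siRNA, with the other neighbours in the same order.

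**Figure D4:**
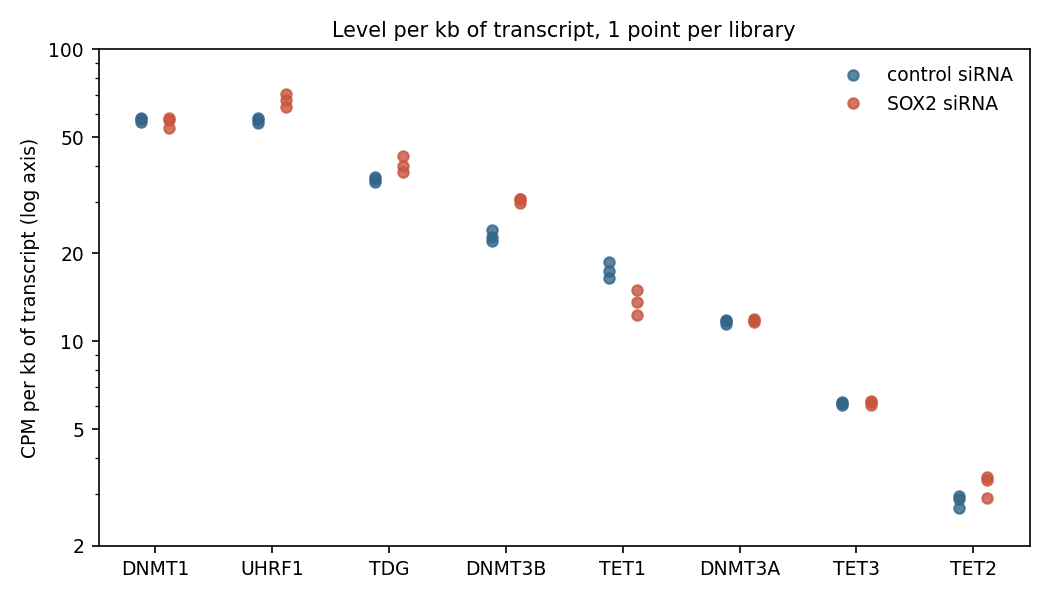
Level of the 8 detected genes in CPM per kb of transcript on a log axis, 1 point per library, control siRNA in blue and SOX2 siRNA in red. The levels run from about 57 CPM per kb for DNMT1 and UHRF1 down to 2.85 for TET2 in control, and the distance between DNMT3B and TET1 is wider after SOX2 siRNA.

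The genes around these enzymes were followed in 8 lists, of which 36 of 114 tested genes (31.6%) were called, beside 28.2% of all tested genes. Among 17 tested genes listed as partners in maintenance and de novo methylation, 7 were called lower and none higher, with a median log2 fold change of -0.095. The 7 include TRDMT1, which acts on transfer RNA and is not a partner in DNA methylation. Over all tested genes 13.4% were called lower. In either direction the share was 28.2%, and 36.6% over genes with a mean log2 CPM of at least 4, so the number called is near the background. The shared direction was not tested. The list's calls were 5 to 8 with 1 library left out. HELLS, a chromatin remodeller needed for methylation of repeats, its partner CDCA7, the related CDCA7L and the zinc finger gene ZBTB24 were all lower, with log2 fold changes of -0.24 (SE 0.043), -0.20 (SE 0.038), -0.46 (SE 0.044) and -0.21 (SE 0.051) and edgeR adjusted p of 3.20e-04, 6.74e-04, 3.99e-07 and 0.00471. HELLS, CDCA7 and ZBTB24 are 3 of the genes mutated in the ICF syndrome, as is DNMT3B, which moved the other way. ZBTB24 was named after its values were seen. TRDMT1, a DNMT relative that methylates transfer RNA, had the lowest value of the list, -0.50 (edgeR adjusted p = 4.32e-07), from 39.9 ± 1.07 to 28.1 ± 0.0602 CPM (SD, n = 3). UHRF2, the paralogue of UHRF1, had a log2 fold change of -0.013 and PCNA, the replication clamp, of -0.042, neither called.

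Of 8 genes listed as readers of methylated DNA, not all of which need bind it, 3 rose and none fell, with a median log2 fold change of 0.12. The share called was 28.2% over all tested genes and 36.6% over those with a mean log2 CPM of at least 4, so this count is near the background. MBD2, which recruits a repressive deacetylase complex, rose by 0.32 on the log2 scale (edgeR adjusted p = 8.62e-04), from 19.4 ± 1.18 to 24.2 ± 0.724 CPM (SD, n = 3). MBD4, a glycosylase that like TDG removes thymine from T:G mismatches, and ZBTB38 rose by 0.17 each (edgeR adjusted p = 0.0127 and 0.00962). MBD4 lost its call without control replicate 3 or SOX2 siRNA replicate 2, and ZBTB38 without SOX2 siRNA replicate 2, where only the call of MBD2 was left in the list.

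Among 11 TET partners and CXXC proteins, which bind unmethylated CpG, 2 rose and 2 fell, with a median of 0.023. This count too is near the background of 28.2% of all tested genes and 36.6% of those with a mean log2 CPM of at least 4. CXXC5 rose most, from 79.2 ± 3.37 to 133 ± 3.23 CPM (SD, n = 3), which is 0.75 on the log2 scale (edgeR adjusted p = 2.53e-10). KDM2B rose (0.19) and its paralogue KDM2A fell (-0.12), with edgeR adjusted p of 0.00932 and 0.0177. WT1, a transcription factor that binds TET2, fell by 0.32 on the log2 scale (edgeR adjusted p = 0.0134). Without control replicate 2 the calls of KDM2B and KDM2A were lost, leaving 2 in the list. KDM2B also lost its call without control replicate 1, KDM2A without SOX2 siRNA replicate 3, and WT1 without control replicate 3 and in DESeq2's test. OGT, the glycosyltransferase that binds TET proteins, had a log2 fold change of 0.059, not called.

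Of 13 tested genes listed under base excision repair and deamination, 2 fell, none rose and the median was 0.020. THUMPD3, a gene of neither process, was on this list, was not called and held that median value. PARP1, which senses strand breaks, fell from 560 ± 14.4 to 437 ± 9.55 CPM (SD, n = 3), which is -0.36 on the log2 scale (edgeR adjusted p = 3.76e-07). LIG3, the ligase of that pathway, fell by 0.12 (edgeR adjusted p = 0.0294). LIG3 lost its call in 5 of 15 alternatives (without control replicate 1 or 2, without SOX2 siRNA replicate 1 or 2, and with no filter). The deaminase gene APOBEC1 had no count.

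Among 20 tested genes of methyl donor supply, 5 rose and 2 fell, with a median of 0.017. That count is near the background of 28.2% of all tested genes and 36.6% of those with a mean log2 CPM of at least 4. MAT2A and MAT2B, the catalytic and regulatory subunits of the enzyme that makes S-adenosylmethionine, rose by 0.28 and 0.33 (edgeR adjusted p = 3.04e-05 for each). MAT2A went from 348 ± 14.5 to 422 ± 14.8 CPM and MAT2B from 41.7 ± 0.994 to 52.4 ± 1.62 CPM (SD, n = 3). The folate enzyme MTHFD1 fell by 0.22 on the log2 scale (edgeR adjusted p = 2.17e-04). Among 17 genes listed for the supply of 2-oxoglutarate, the co-substrate of TET enzymes, 2 fell and none rose, with a median of -0.0033. The list also holds SDHA, SDHB, SDHC, SDHD and FH, which neither make nor use 2-oxoglutarate. GLUD1, which makes it from glutamate, fell by 0.11 (edgeR adjusted p = 0.0219). The GLUD1 call was lost without control replicate 3, without SOX2 siRNA replicate 2 and with no filter, and leaving out control replicate 1 raised the list's calls to 4.

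Germline genes known to be silenced by promoter methylation in somatic cells were nearly absent: 17 of 26 had any count and 3 passed the filter. DAZL, a germ cell RNA-binding protein, was detected in all libraries and fell from 9.05 ± 0.206 to 5.19 ± 0.358 CPM (SD, n = 3), which is -0.80 on the log2 scale (edgeR adjusted p = 5.06e-06). STK31 and SOHLH2 had log2 fold changes of -0.19 and 0.060, neither called. A list of 25 S phase genes was kept because DNMT1 and UHRF1 are made mainly in S phase. Of these, 6 rose and 4 fell, with a median of 0.013. Beside 28.2% called over all tested genes and 36.6% over those with a mean log2 CPM of at least 4, this count is near the background. CDK2 (0.41), CCNE1 (0.48) and E2F1 (0.25) rose and LIG1 (-0.19) fell, with edgeR adjusted p of 6.01e-07, 2.88e-05, 0.00157 and 0.00259. The part of cell cycle distribution in the change of UHRF1 was not tested.

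**Figure D5:**
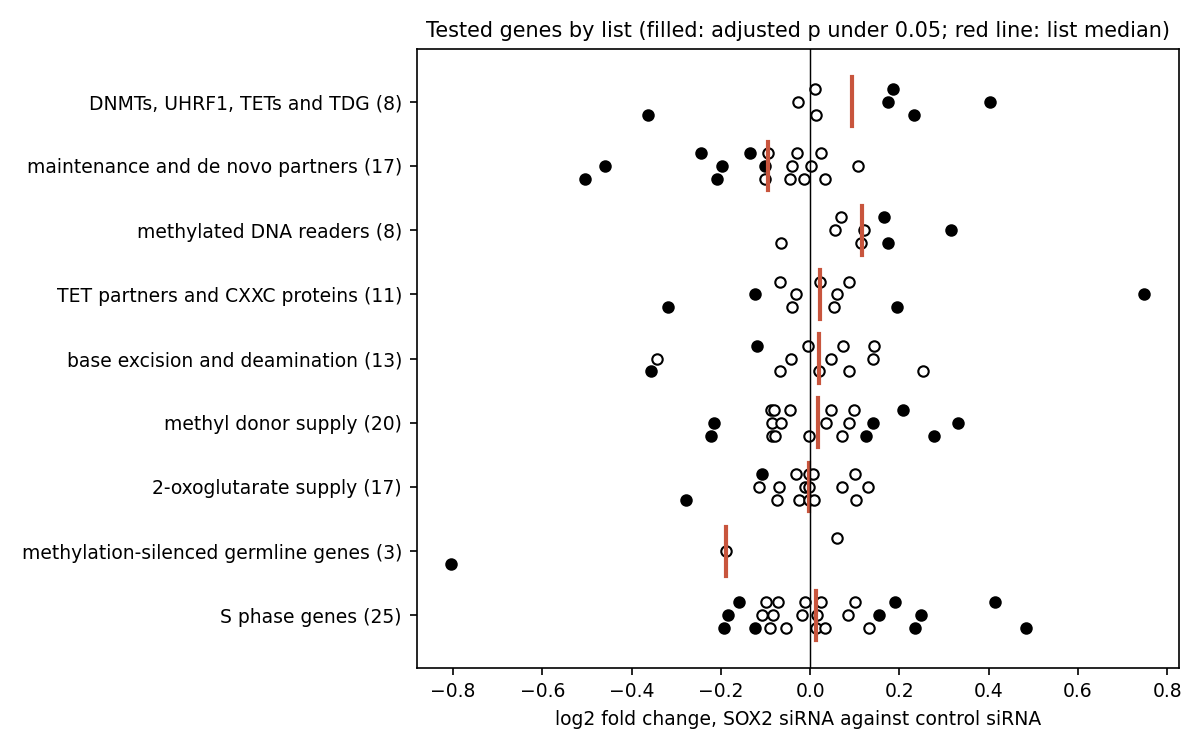
Log2 fold change of SOX2 siRNA against control siRNA for each tested gene of the 9 examined (top line) and of the 8 related lists, with the number tested in brackets, filled points for an adjusted p under 0.05 and a red line at each list's median. The list of methylation partners holds 7 called genes, all lower and including the transfer RNA methyltransferase TRDMT1, while CXXC5 (0.75) and DAZL (-0.80) lie farthest from 0.

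Other genes were ranked by how closely they followed DNMT3B, the member with the smallest p-value, among 8907 genes whose mean log2 CPM reached 4. Over the 6 libraries the highest Pearson r of log2 CPM, 0.998 to 0.9988, belonged to CLPTM1, RHOBTB2, HS3ST3B1, ETV5 and RAI1, which had log2 fold changes of 0.20, 0.41, 0.95, 0.50 and 0.46. DNMT3B itself differed between the groups, so a high r over all 6 libraries includes a shared group difference. With group means removed the highest r, 0.9951 to 0.9996, belonged to RND2, MRPL12, DRG2, ATP5F1B and PLEKHG1, a list with no gene of the first and with log2 fold changes of -0.32, 0.11, -0.13, -0.011 and -1.09. They are the highest of 8907 values over so few points, which share their libraries and depth, and are given as a description.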

How the data were processed

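Messenger RNA of PA1 cells was sequenced in 6 libraries, 3 per treatment, after Trizol extraction and KAPA mRNA HyperPrep library preparation, per the labels' protocols. The deposited table holds raw counts per gene symbol (59653 symbols, of which 33956 had a count). The submitters' processing notes name bcl2fastq 2.20.0, STAR 2.7.3a, Salmon 0.14.1, DESeq2 1.28.1 and build GRCh38.p13. Which tool made the counts, the annotation and any use of strand are not given in the sources used here, so reads of overlapping or antisense genes may not be separable.

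Counts were scaled by TMM and tested with edgeR 4.0.16 (R 4.3.3) by the quasi-likelihood F test with robust dispersion, after filterByExpr with a minimum count of 10, on both groups without covariates. This left 17592 genes, over all of which p-values were adjusted by Benjamini-Hochberg, with a threshold of 0.05. SE is the absolute log2 fold change divided by the square root of F. CPM used TMM-scaled library sizes, and log2 CPM a prior count of 2. Depth of 25152313 to 32753184 counts makes 3 counts equal to 0.0909 to 0.120 CPM. Ratios were compared by exact permutation of libraries. On simulated counts of 17315 genes for this comparison, the test recovered 48% of genes given a change of 1.25-fold and 92% of those given 4-fold. It recovered 70% and 80% for changes of 1.5-fold and 2-fold, and 3.33% of its calls were false. The changed genes were drawn at random from all genes kept by the filter, low counts included. Over genes of all levels a missed call was thus common for small changes, and the rate at the members' levels was not simulated.

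Alternatives were DESeq2 1.42.0 size factors and Wald test, scaling by upper quartile or by total counts, a test without the filter, at least 10 counts in every library, limma 3.58.1 (voom), non-robust dispersion, the replicate number as a block, and leaving out each library. The genes named were the 9 members, SOX2, the called genes of smallest p in each list (at most 4), the 5 genes most like DNMT3B on each of 2 scales, and rows bearing a member's name. OGT, UHRF2, PCNA, STK31, SOHLH2, APOBEC1, ZBTB24 and S1PR2 were named after their values were seen, as were the markers described. Some called list genes are not reported here. Members and lists were chosen with earlier results of these data known. Positions and lengths come from GENCODE 29 and start regions from RefSeq (GRCh38.p14).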

Additional observations from a re-analysis of the deposited data

How the results depend on the processing

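DNMT3B (log2 fold change 0.38 to 0.44), UHRF1 (0.19 to 0.27) and TDG (0.12 to 0.21) kept direction and call in all 15 alternatives, with edgeR, limma or DESeq2 adjusted p of at most 2.42e-05, 0.00308 and 0.0493. TET1 kept its direction, and its call except in the 2 alternatives given with its values. TET2 also lost its call with upper-quartile scaling (edgeR adjusted p = 0.0815), total counts (0.0554), non-robust dispersion (0.0661) and DESeq2's Wald test (0.0929). Signs changed only for values that were never called: upper-quartile scaling gave -0.0098 for DNMT3A and -0.0075 for TET3, and leaving out 1 library gave ranges of -0.053 to 0.00016 for DNMT1, -0.0055 to 0.021 for DNMT3A, -0.00045 to 0.024 for TET3 and -0.032 to 0.015 for ATP5F1B. The count of members called was 3 to 5 with 1 library left out, 3 being without control replicate 2 (TET1 and TET2 lost, the cause was not tested), and the count of all genes called was 3760 to 4863. Of 540 values of the other 36 named genes, 521 kept direction and side of the threshold, 17 lost and 1 (MRPL12) gained a call. Calls in base excision and deamination were 1 to 3, and in 2-oxoglutarate supply 1 to 4, with 1 library left out. Upper-quartile scaling moved the share of higher calls from 52.4% to 45.8%. Same-numbered libraries did not deviate together (r -0.038 to 0.087, other numbers -0.12 to 0.15), so the numbers are not taken as pairs. With the replicate block, 5177 genes, 4 members and 40 list genes were called, and TET1 was the member lost. The log2 ratio of DNMT3B to DNMT3A and the TET1 share kept their sign in every leave-one-out. With 3 libraries per group, small changes are limited by their spread more than by counts, the lowest count of a detected member being 754.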
